A study of Prunus avium with 18 samples.

Results

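GH17_13 (PAV07g0318011), GH17_17 (PAV06g0280451), GH17_22 (PAV04g0221611) and GH17_29 (PAV04g0184211) are the members of the GH17 family of sweet cherry (Prunus avium) that the study placed outside its clusters of genes repressed during dormancy. They were 4 of the 42 GH17 genes in the study's list of transport candidates and 4 of the 48133 genes in the count files, and all 4 were among the 26248 genes that passed the filter on low counts. The clusters had been built from the correlation of expression levels between genes, over the same dates and the same libraries that are described here. The members were thus chosen by their measured levels over these dates, a high level at an endodormancy date included, and their levels and fold changes over the dates are given as a description, without a test.

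Callose is a beta-glucan deposited around plasmodesmata, the channels that join neighbouring plant cells, and its deposition narrows them. Beta-1,3-glucanases of glycoside hydrolase family 17 (GH17) cut callose, callose synthases make it, and the plasmodesmata callose-binding proteins (PDCB) and plasmodesmata-located proteins (PDLP) sit at the channels. In buds of woody plants, closure of plasmodesmata by callose has been associated with dormancy and their reopening with glucanase activity. All 4 genes were assigned to the GH17 family in the annotation used by the study. Its functional category for GH17_13, GH17_17 and GH17_29 was that of a glucan endo-1,3-beta-glucosidase, whereas GH17_22 had only a general hydrolase category.

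Messenger RNA was sequenced from flower buds of the cultivar 'Fertard', taken from orchard trees at 6 dates, with 3 replicates of buds from different trees at each date (18 libraries). The labels give dates and no stages. After the names of the study's clusters, October 17, 2017 is called dormancy onset here, December 8, January 3, January 15 and February 12 the 4 endodormancy dates, when buds do not resume growth even under favourable conditions, and March 12, 2018 ecodormancy, when cold alone holds growth back. The study's own forcing tests put dormancy release that winter after the last sampling, so that the March stage is a name for the date. The labels of the December libraries carry December 17, 2012, while the series design gives December 8, 2017, which is used here. All libraries share 1 cultivar and had no treatment, and date, dormancy stage, temperature and day length cannot be told apart. Apart from the study's candidates, gene identifiers carried no names, and the flower bud label was not checked against marker genes. The libraries held 10095600 to 21023379 counted reads. Levels are CPM, the reads of a gene relative to the library total after TMM scaling (trimmed mean of M values), and errors are SD with n = 3. CPM is not divided by gene length, so it compares dates within 1 gene and not 2 genes with each other. Because whole buds were sequenced, fewer cells of a type and less RNA per cell cannot be told apart.

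The 4 genes had little in common beyond the rule. GH17_13 peaked in December, GH17_17 and GH17_29 on January 3, and GH17_22 on February 12. The number of endodormancy dates whose mean lay above both October 17 and March 12 was 4 of 4 for GH17_17 (3 of 4 on total counts or without October replicate 1 or December replicate 1 or 3, since its December and October means were nearly equal), 3 of 4 for GH17_22, 2 of 4 for GH17_13 and 1 of 4 for GH17_29. GH17_13 was also at its lowest within endodormancy, on January 15, and GH17_29 was as high in October as at its January peak, and no gene of the 4 was high at all endodormancy dates.

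**Figure D1:**
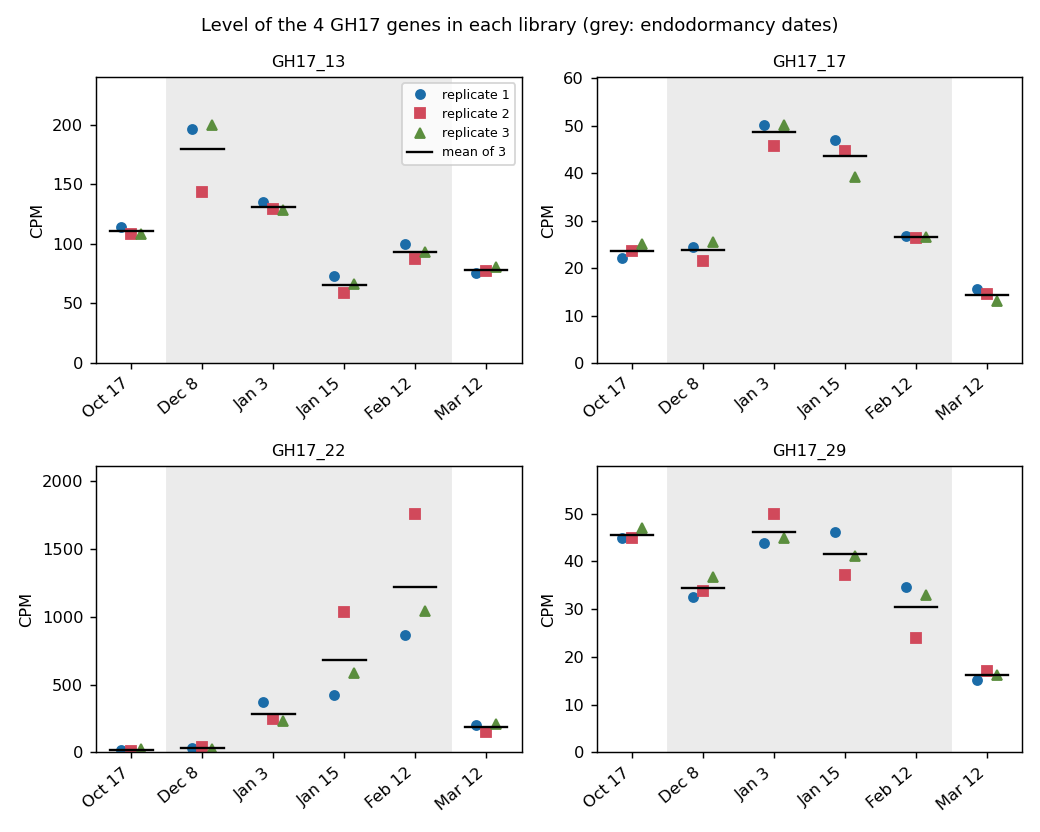
Level of GH17_13, GH17_17, GH17_22 and GH17_29 in CPM (vertical axes, from 0) in each of the 18 libraries at the 6 sampling dates (horizontal axes). Symbols are replicates 1, 2 and 3, black lines are the means of 3, and grey marks the endodormancy dates. GH17_13 falls from a December mean of 179.9 CPM to 65.8 CPM on January 15, whereas GH17_22 climbs from 15.6 CPM in October to 1223 CPM on February 12.

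GH17_22 had the widest range. Its 3 libraries stood at 16.2, 8.72 and 21.997 CPM on October 17 and at 32.2, 41.7 and 24.2 CPM on December 8. The January 3 libraries reached 376, 248 and 231 CPM, and those of January 15 reached 423, 1032 and 586 CPM. On February 12 the values were 866, 1758 and 1045 CPM, and on March 12 they were 206, 154 and 211 CPM. The October libraries were thus the lowest, every library from January 3 on was above every library of the first 2 dates, and the highest libraries belonged to January 15 and February 12.

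Means of GH17_22 were 15.6 ± 6.65 CPM in October, 32.7 ± 8.76 CPM in December, 285 ± 78.8 and 680.2 ± 315 CPM on the January dates, 1223 ± 471 CPM on February 12 and 190.2 ± 31.5 CPM in March. In the order of dates, only February 12 and January 15 overlapped in their libraries. The February mean was 78.2 times the October mean and 6.43 times the March mean. GH17_22 remained 12.2 times above its October mean in March, and its December mean was below that of March. Its counts ranged from 139 to 21879 reads per library, so even the October values rest on more than 100 reads. The step into January 3 was the largest: the log2 fold change was 1.07 (standard error 0.38) from October 17 to December 8, 3.12 (0.36) from December 8 to January 3, 1.25 (0.33) from January 3 to January 15 and 0.85 (0.32) from January 15 to February 12, followed by -2.68 (0.34) from February 12 to March 12.

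GH17_22 also varied more between trees than the other 3 genes. The SD of log2 CPM within a date, pooled over the 6 dates, was 0.50 for GH17_22, 0.14 for GH17_13, 0.10 for GH17_17 and 0.15 for GH17_29, beside a median of 0.13 over the 14217 genes with a mean of at least 10 CPM. The value of GH17_22 was above that of 98.5% of those genes. Its largest ratio between libraries of a date was 2.52, in October. On January 15 and February 12 replicate 2 was the highest for GH17_22 and the lowest for GH17_13 and GH17_29. The February 12 replicate 2 library was also 1 of the 3 libraries with the lowest share of uniquely mapped reads in the study's mapping table, and the part of mapping in this difference was not tested. Without both replicate 2 libraries, a choice made after seeing the data, the means of GH17_22 were 505 CPM on January 15 and 958 CPM on February 12, and February 12 stayed its highest date.

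GH17_17 was the most even of the genes between replicates and was clearly above both flanking dates in January. It stood at 22.1, 23.6 and 25.2 CPM on October 17 and at 24.4, 21.5 and 25.5 CPM on December 8. On January 3 the libraries were at 50.2, 45.7 and 50.2 CPM, and on January 15 at 46.9, 44.7 and 39.3 CPM. February 12 gave 26.8, 26.4 and 26.6 CPM and March 12 gave 15.6, 14.5 and 13.1 CPM. Both January dates were clear of all others, and every March library was below every other library.

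The January 3 mean of GH17_17 was 48.7 ± 2.61 CPM, 2.06 times the October mean of 23.6 ± 1.55 CPM and 3.38 times the March mean of 14.4 ± 1.24 CPM. Between these, the means were 23.8 ± 2.05 CPM in December, 43.7 ± 3.92 CPM on January 15 and 26.6 ± 0.224 CPM on February 12. January 3 and January 15 overlapped in their libraries, and so did December and October. The log2 fold change was 0.01 (standard error 0.09) from October to December, with a sign that changed under some settings, 1.03 (0.09) from December to January 3, -0.16 (0.09) to January 15, -0.72 (0.09) to February 12 and -0.88 (0.10) to March 12. GH17_17 therefore described a January plateau and not a level held from December.

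GH17_13 was highest at the first endodormancy date and lowest at the third. October 17 libraries were at 114, 109 and 108 CPM, and December 8 libraries at 196, 143 and 199.8 CPM. The values on January 3 were 135, 129.6 and 129 CPM, and on January 15 they were 73.0, 58.4 and 66.0 CPM. For February 12 they were 100.1, 86.9 and 93.5 CPM and for March 12 75.5, 76.9 and 80.6 CPM. No neighbouring dates in its order overlapped, although December replicate 2 lay well below the other 2 December libraries.

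The order of GH17_13 was December 8 (179.9 ± 31.6 CPM), January 3 (131 ± 3.30 CPM), October 17 (110.3 ± 3.24 CPM), February 12 (93.5 ± 6.59 CPM), March 12 (77.7 ± 2.59 CPM) and January 15 (65.8 ± 7.28 CPM). The December mean was 1.63 times that of October and 2.73 times that of January 15. Its log2 fold change was 0.71 (standard error 0.10) from October to December, -0.46 (0.10) from December to January 3, -0.99 (0.10) from January 3 to January 15, 0.51 (0.10) from January 15 to February 12 and -0.27 (0.10) from February 12 to March 12. The fold changes of GH17_13 and GH17_22 had opposite signs at 2 of these 5 steps, from December 8 to January 3 and from January 3 to January 15.

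GH17_29 was lower in March than at every other date, and its winter peak barely exceeded its October level. Its libraries were at 44.9, 44.9 and 47.04 CPM on October 17 and at 32.6, 33.9 and 36.8 CPM on December 8. They were at 43.9, 49.9 and 44.99 CPM on January 3 and at 46.1, 37.2 and 41.2 CPM on January 15. On February 12 they were at 34.6, 23.9 and 32.9 CPM, and on March 12 at 15.2, 17.1 and 16.2 CPM. The October libraries lay within the range of the January 3 libraries, and the March libraries were below all 15 others.

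The January 3 mean of GH17_29, 46.2 ± 3.20 CPM, was 1.01 times its October mean of 45.6 ± 1.25 CPM and 2.86 times its March mean of 16.2 ± 0.923 CPM. January 15 (41.5 ± 4.45 CPM) overlapped with October, and December (34.4 ± 2.17 CPM) with February 12 (30.4 ± 5.75 CPM). Which date was highest depended on the scaling: October 17 took the place of January 3 in 7 of 23 alternatives, among them all 3 other scalings. The log2 fold change was -0.41 (standard error 0.11) from October to December, 0.43 (0.11) to January 3, -0.16 (0.11) to January 15, -0.44 (0.11) to February 12 and -0.92 (0.12) to March 12. The label of a gene highest during endodormancy thus held for GH17_29 against March and not against October.

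Compared with the average of both flanking dates, the 4 endodormancy dates together were 2.45 (standard error 0.23) higher on the log2 scale for GH17_22, 0.88 (0.06) for GH17_17, 0.47 (0.07) for GH17_29 and 0.25 (0.06) for GH17_13. A log2 difference over 1 was reached by 1 of the 4 genes, GH17_22. Across all genes tested, 4.60% were called higher and 12.9% lower in this comparison, where a call needed an adjusted p under 0.05 in edgeR's quasi-likelihood test and an absolute log2 fold change over 1. Between consecutive dates, the same size was reached upwards by GH17_22 alone from October to December (3.49% of all genes called higher), by GH17_17 and GH17_22 from December to January 3 (6.34%) and by GH17_22 alone from January 3 to January 15 (2.91%). None of the 4 reached it from January 15 to February 12 (7.10% called higher, 3.90% lower), and GH17_22 alone reached it downwards from February 12 to March 12 (9.66% called lower). With 1 library left out, several of these differences crossed a log2 fold change of 1. That of GH17_22 into December fell to 0.77 without October replicate 2 and was also under 1 without December replicate 2, and its difference into January 15 fell to 0.82 without January 15 replicate 2. For GH17_17 the difference into January 3 was 0.97 without December replicate 2, and also under 1 without February 12 replicate 3 or March replicate 1, under both other filters, in DESeq2 and with DESeq2 or upper quartile scaling. Conversely, GH17_22 reached 1.28 into February 12 without January 15 replicate 2 and was over 1 without February 12 replicate 1. GH17_29 reached -1.06 into March without February 12 replicate 2, and GH17_13 -1.08 into January 15 without January 15 replicate 1 and a size just over 1 without January 3 replicate 2 or 3. Since the rule used these dates, the shares of all genes are given for scale and nothing is read from them about the 4 genes.

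The other 38 GH17 genes mostly ran the other way. Of these, 29 could be tested and 9 did not pass the filter on mean count and zeros, 3 of them with no read in any library. Of all 42 GH17 genes 34 averaged at least 3 counts, so not all of the 9 failed by their mean count. In the endodormancy comparison 0 of the 29 were called higher and 15 lower by edgeR's quasi-likelihood test. DESeq2 gave the same counts of 0 and 15, and at an unadjusted p under 0.05 edgeR had 0 higher and 23 lower. Their median log2 fold change was -1.01, beside -0.01 over all genes tested. Examples are GH17_25, with a log2 fold change of -2.01 (standard error 0.12, adjusted p = 1.09e-10 in edgeR), and GH17_5, with -1.50 (0.09, adjusted p = 8.09e-11). GH17_30 (-1.48, 0.08, adjusted p = 3.60e-11) and GH17_28 (-1.17, 0.05, adjusted p = 3.29e-13) were lower as well. The study names these 4 genes as repressed, so their direction is not independent evidence. The other GH17 genes are those left after the rule took out the members placed outside the repressed clusters. Those clusters were built on these same libraries, so the direction of the 29 genes is partly set by the choice. Their counts and p-values are therefore a description.

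**Figure D2:**
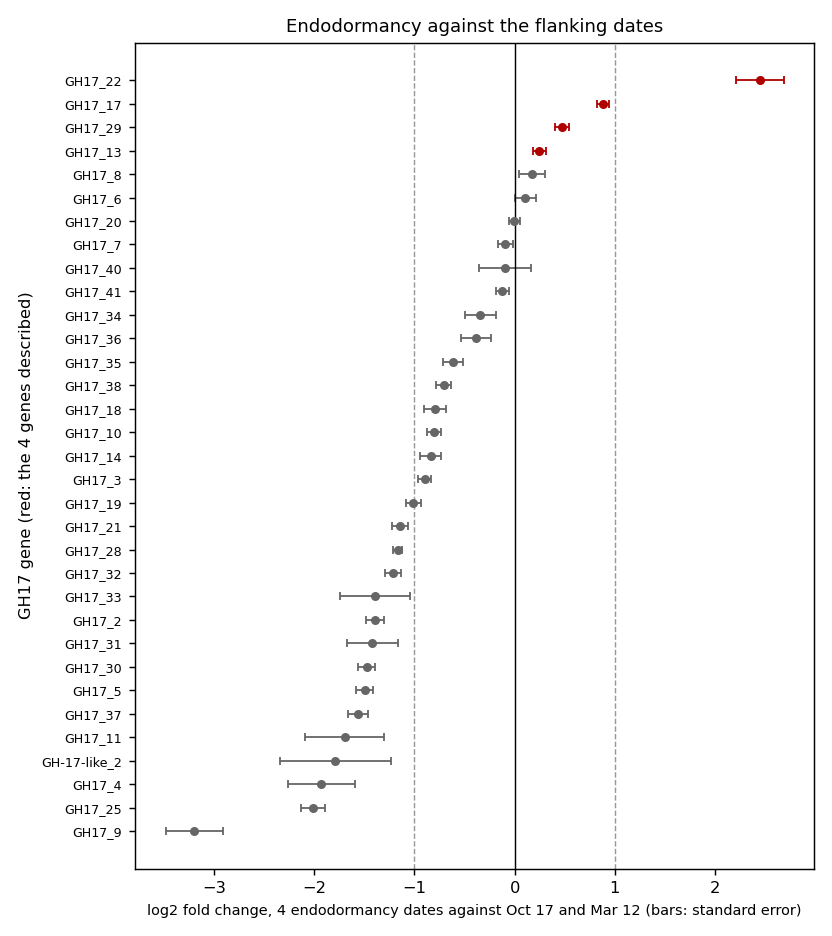
Log2 fold change between the mean of the 4 endodormancy dates and the mean of October 17 and March 12 (horizontal axis) for the 33 tested GH17 genes (vertical axis), with standard errors as bars and dashed lines at a log2 fold change of 1 in both directions. GH17_22, at 2.45, lies beyond the upper line, GH17_17, GH17_29 and GH17_13 lie between 0 and that line, and 15 other GH17 genes lie below the lower line.

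Over single steps, the other GH17 genes called higher were 1 (GH-17-like_2) from October to December, 0 to January 3, 1 (GH17_25) to January 15, 6 to February 12 and 15 to March 12. Of all genes tested, 3.49%, 6.34%, 2.91%, 7.10% and 14.7% were called higher over these steps. The other GH17 genes called lower were 5, 4, 0, 1 (GH17_10) and 0 over the same steps, beside 11.6%, 4.05%, 1.49%, 3.90% and 9.66% of all genes tested. Nothing is read from a step with 1 gene called, and all these counts are partly set by the choice of genes. For the steps with a count of 0, DESeq2 also gave 0, and edgeR had 0 higher genes on January 3, 3 lower genes on January 15 and 1 lower gene on March 12 at an unadjusted p under 0.05. In the last step, where GH17_22 fell by 2.68 on the log2 scale and the log2 fold changes of the other 3 genes described were -0.27 to -0.92, 15 of 29 other GH17 genes were called higher, beside 14.7% of all genes. The single calls were not stable: GH-17-like_2 was no longer called without October replicate 1 or 2 or December replicate 1 or 3, the 5 lower calls became 3 without December replicate 1, the GH17_25 call was lost without January 3 replicate 2 or January 15 replicate 2, and the GH17_10 call without February 12 replicate 2.

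By the date of the highest mean, 21 of the 29 other GH17 genes peaked on March 12, 3 on October 17 and 5 at an endodormancy date, whereas 57.2% of all genes tested peaked at an endodormancy date. The rule had taken out GH17 genes outside the repressed clusters, so this contrast is partly set by the choice. The 5 were GH17_8, GH17_40, GH17_34, GH17_6 and GH17_7. Their endodormancy peaks were slight or shared with March. GH17_34 stood at 102 ± 33.8 CPM in February and 79.4 ± 21.5 CPM in March, with overlapping libraries, after 17.3 ± 5.10 CPM on January 15. It rose by 2.54 on the log2 scale from January 15 to February 12 (standard error 0.25, adjusted p = 6.78e-07 in edgeR). GH17_7 was at 20.9 ± 3.27 CPM in February and 20.2 ± 0.930 CPM in March, and GH17_6 at 8.06 ± 0.711 and 7.09 ± 0.421 CPM. GH17_8 reached 3.97 ± 0.333 CPM in December beside 3.08 ± 0.471 CPM in October, and GH17_40 only 0.601 ± 0.0413 CPM on January 3, from 7 to 10 reads per library. None of the 5 was called higher in the endodormancy comparison, in which their log2 fold changes ran from -0.34 to 0.17.

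**Figure D3:**
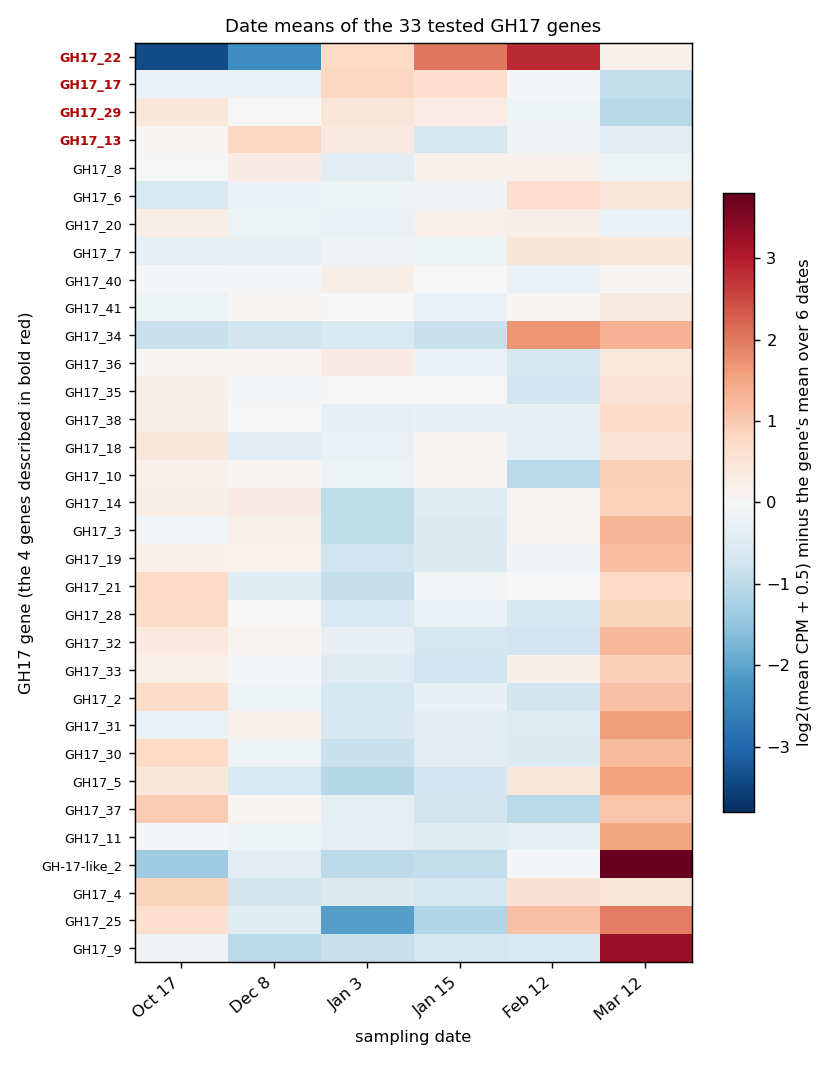
Date means of the 33 tested GH17 genes, as log2(mean CPM + 0.5) minus the mean of each gene over the 6 dates (colour, red higher and blue lower), with genes ordered by their endodormancy log2 fold change. The 4 genes described stand at the top of the order, which their choice fixes, and 21 of the other 29 rows have their highest value on March 12.

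The make-up of the family's reads changed over the dates. The 4 genes were chosen by their levels over these dates, so the direction of the changes in share is partly set by the choice. Reads of the 4 genes together were 19.8 ± 1.42% of all GH17 reads on October 17 and 31.98 ± 2.85% on December 8. The share was 53.1 ± 4.73% by January 3, 59.4 ± 9.02% by January 15 and 65.4 ± 6.37% by February 12, but 15.8 ± 2.02% on March 12. The 3 February libraries ranged from 59.9% to 72.4% and the 3 March libraries from 13.5% to 17.4%, so that these dates did not overlap. GH17_22 alone made up 1.60 ± 0.725% of GH17 reads in October, 3.87 ± 1.07% in December and 57.8 ± 8.51% on February 12. With GH17_22 taken out of both sums, the share of the other 3 genes rose from 18.5 ± 0.874% in October to 29.2 ± 3.71% in December and 33.5 ± 1.104% on January 3. It was 17.8 ± 1.64% on February 12 and 6.38 ± 0.319% on March 12. The rise of the share into December was therefore mostly not that of GH17_22. Of the other 3 genes only GH17_13 rose between these dates, from 110.3 to 179.9 CPM. GH17_17 was nearly level (23.6 and 23.8 CPM) and GH17_29 fell from 45.6 to 34.4 CPM. The 38 other GH17 genes together fell from 789.8 CPM in October to 576 CPM in December and 448 CPM on January 3, which also raises the shares. These are shares of reads and not of molecules, since longer genes give more reads.

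Summed over the 42 genes, the GH17 level was 985 ± 34.96 CPM in October, 846 ± 7.01 CPM in December and 2069 ± 482 CPM on February 12, before 1890.3 ± 46.3 CPM in March. The 38 other genes together were at 789.8 ± 40.4 CPM in October, at 576 ± 19.3 CPM in December and at their lowest of 448 ± 17.0 CPM on January 3. They were at 695 ± 25.4 CPM on February 12 and at 1592 ± 77.2 CPM in March. The summed level of the family was therefore similar in February and March, with the difference smaller than the SD in February, while it came mostly from GH17_22 at the first of these dates and mostly from the other genes at the second.

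**Figure D4:**
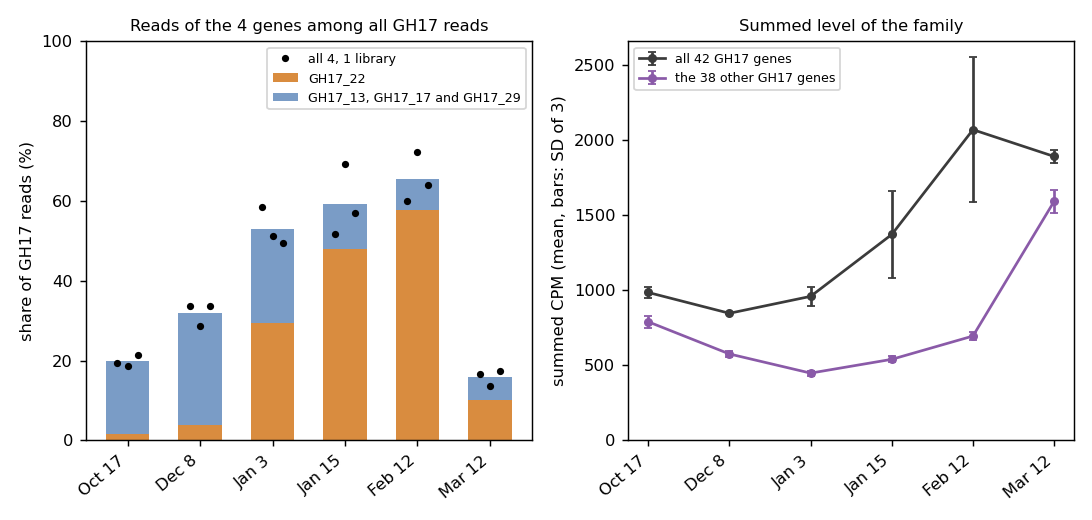
Left, share of all GH17 reads in percent (vertical axis) taken by GH17_22 (orange) and by GH17_13, GH17_17 and GH17_29 (blue), as means per date, with black points for the sum in each library. Right, summed CPM of all 42 GH17 genes and of the 38 others (mean, bars are SD, n = 3). The 4 genes rise from 19.8% of GH17 reads in October to 65.4% on February 12 and stand at 15.8% in March, when the other genes reach 1592 CPM. The choice of the 4 genes partly sets this course.

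The rest of the callose pathway was described with the same comparison of endodormancy with the flanking dates. In it, 4.60% of all genes tested were called higher and 12.9% lower. Of 13 beta-1,3-glucanase genes that the study listed as BG, outside its GH17 family, 5 could be tested, and 2 were called higher and 0 lower (DESeq2 2 and 0; edgeR at an unadjusted p under 0.05 also 2 and 0). BG_3C had a log2 fold change of 2.91 (standard error 0.24, adjusted p = 7.23e-09 in edgeR) and BG_1A of 1.01 (0.28, adjusted p = 0.00392). The count of 2 became 1 when any of 8 libraries was left out: October replicate 2, December replicate 2 or 3, January 3 replicate 3, January 15 replicate 2 or 3, February 12 replicate 2 or March replicate 1. Over single steps, BG_3C was called higher (3.49% of all genes) and BG_1A and BG_3B lower (11.6%) from October to December. From December to January 3, 4 of the 5 were called higher (6.34%), and all 5 from January 3 to January 15 (2.91%). None was called from January 15 to February 12, and 4 were called lower from there to March 12 (9.66%). DESeq2 had 1 higher and 3 lower into December, 3 and 4 higher in January, 0 in February and 3 lower in March. With 1 library left out, edgeR called 2 to 4 BG genes higher into January 3, 3 to 5 into January 15 and 0 to 2 into February 12. Into March it called 3 to 4 lower. Of 31 callose synthase genes, 26 could be tested and none was called in either direction by edgeR or DESeq2 in the endodormancy comparison. At an unadjusted p under 0.05 edgeR had 7 higher and 5 lower, and 1 was called higher without October replicate 2 or without March replicate 3.

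Genes for proteins that bind callose or sit at plasmodesmata had calls on the lower side only in this comparison. Of all genes tested, 4.60% were called higher and 12.9% lower. Among 5 tested PDCB genes, 0 were called higher and 4 lower (DESeq2 0 and 4; edgeR at an unadjusted p under 0.05, 1 and 4), and among 7 tested PDLP genes, 0 were called higher and 3 lower (DESeq2 0 and 3; edgeR at an unadjusted p under 0.05, 0 and 5). The largest was PDCB5B, with a log2 fold change of -4.24 (standard error 0.19, adjusted p = 2.03e-12 in edgeR), but its October level of 1.50 ± 0.171 CPM lay within the endodormancy means of 1.13 to 1.86 CPM, and the difference came from 467 ± 71.9 CPM in March. PDLP6B, at -1.99 (0.14, adjusted p = 7.63e-10), was above its endodormancy levels at both flanking dates, with 7.36 ± 0.925 CPM in October and 7.03 ± 1.31 CPM in March beside at most 2.39 ± 0.254 CPM between them. The 4 PDCB genes called lower were the same 4 called higher from February 12 to March 12 (14.7% of all genes). From October to December 0 PDCB genes were called lower (11.6% of all genes). DESeq2 also gave 0 there, and edgeR had 2 lower at an unadjusted p under 0.05. The endodormancy calls of PDCB genes thus went with the step into March.

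The candidate genes most like each of the 4 differed from gene to gene. Likeness was the Pearson correlation of log2(CPM + 0.5) over the 18 libraries, which share the dates, and is given as a description. The choice depended on the measure: of the 3 candidates named for each gene, Spearman correlation kept 2 for GH17_13 and GH17_22 and 1 for GH17_17 and GH17_29, and correlation of the 6 date means kept 3 for GH17_22 and GH17_29, 2 for GH17_17 and 1 for GH17_13. Among themselves, GH17_17 and GH17_29 were the most alike (r = 0.77), GH17_13 and GH17_22 ran against each other (r = -0.58), and GH17_13 and GH17_17 showed almost no relation (r = 0.04). The remaining pairs had r of 0.35 (GH17_17 and GH17_22), 0.33 (GH17_13 and GH17_29) and -0.21 (GH17_22 and GH17_29). The 4 genes therefore did not follow a common course.

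For GH17_22 the most alike candidates were a gene of the pathogenesis-related thaumatin superfamily (r = 0.95), a protein family known from plant defence, BG_3C (r = 0.94) and CELLULOSE SYNTHASE-like B4_1 (r = 0.89), of a family that makes cell wall polysaccharides. The thaumatin gene stood at 0.460, 0.377 and 0.880 CPM in October, from 5 to 13 reads, and at 86.2, 159 and 86.8 CPM on January 15, its highest date. BG_3C, a beta-1,3-glucanase by its name in the candidate list, stood at 52.8, 47.2 and 61.4 CPM in October and at 1995, 4180.3 and 2300 CPM on February 12. Both genes were highest in replicate 2 on January 15 and on February 12, as was GH17_22. At other dates the order of replicates was not always shared, the thaumatin gene being highest in replicate 1 in December and March, and CELLULOSE SYNTHASE-like B4_1 was highest in replicate 1 on January 15. The correlation of CELLULOSE SYNTHASE-like B4_1 rests on few reads. It had 0 reads in each October library, 4 in each December library and a highest mean of 3.56 ± 0.932 CPM on February 12. Of all genes tested, the most alike was PAV03g0158121 (r = 0.98), for which the files give no name, with 9.34 ± 2.96 CPM in October, 648 ± 221 CPM on February 12 and 60.3 ± 20.2 CPM in March.

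**Figure D5:**
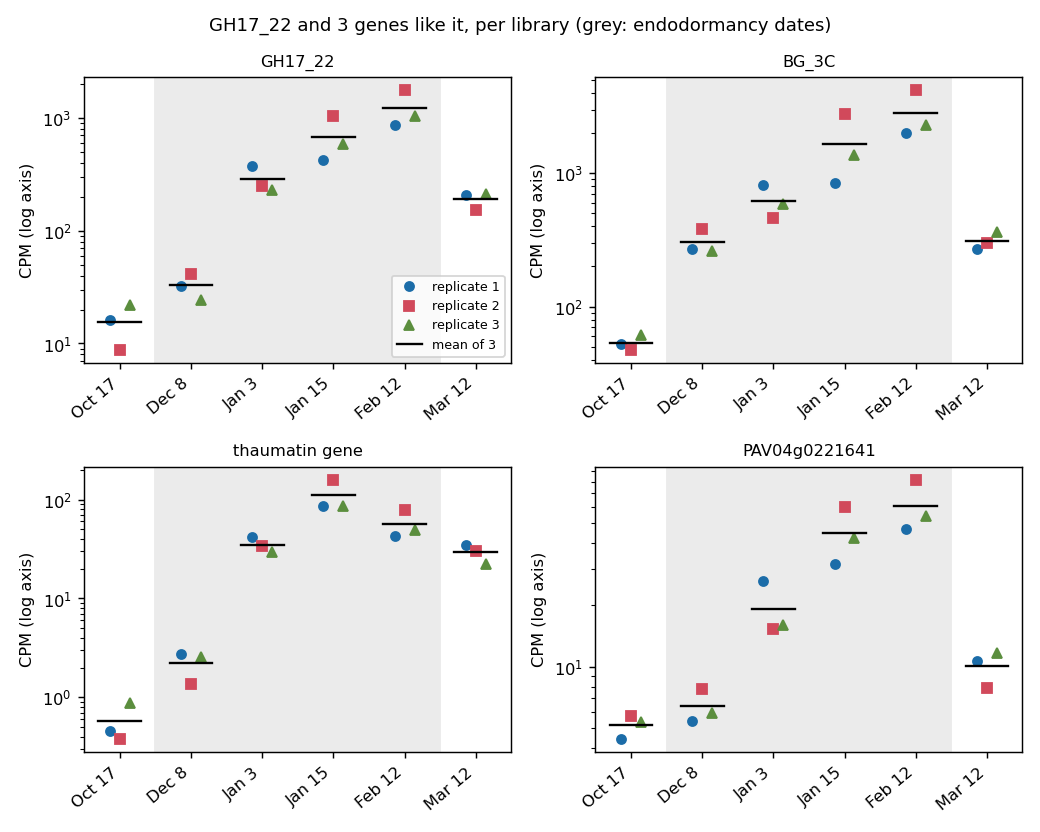
CPM on log axes (vertical) of GH17_22, BG_3C, the gene of the pathogenesis-related thaumatin superfamily (thaumatin gene) and PAV04g0221641, the third identifier after GH17_22, in each library at the 6 dates (horizontal). Symbols are replicates 1, 2 and 3, black lines are means of 3, and grey marks the endodormancy dates. In all 4 panels replicate 2 is the highest library on January 15 and on February 12, for GH17_22 at 1032 and 1758 CPM.

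GH17_17 was most like glucosidase 1 (r = 0.94), PDIT (r = 0.91), which the study listed among plasmodesmal genes, and the callose synthase gene GSL-like3 with the identifier PAV05g0251361 (r = 0.86). Glucosidase 1 went from 99.9 ± 1.31 CPM in October to 137 ± 12.5 CPM on January 3 and 83.7 ± 3.48 CPM in March, a smaller range than that of GH17_17. GSL-like3 moved by less still, from 168 ± 1.88 CPM to 185 ± 1.79 CPM and 148 ± 6.71 CPM on the same dates. Like GH17_17, both genes had their highest mean on January 3 and their lowest in March. PDIT was also lowest in March, at 11.9 ± 0.863 CPM. Its highest mean was on January 15, at 29.8 ± 1.83 CPM beside 28.2 ± 1.70 CPM on January 3.

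GH17_29 was most like CELLULOSE SYNTHASE-like E1_7 (r = 0.95), PECTINESTERASE-like_33 (r = 0.94), of the enzymes that modify cell wall pectin, and CELLULOSE SYNTHASE-like_15 (r = 0.90). Each had its lowest mean in March, at 17.7 ± 2.18, 56.4 ± 5.24 and 151 ± 22.3 CPM. Their highest dates differed, on January 15, January 3 and October 17. PAV05g0247991 was the most alike of all genes tested (r = 0.98), at 873 ± 23.6 CPM in October, 929 ± 91.0 CPM on January 3 and 352 ± 19.5 CPM in March. Its identifier directly follows that of GH17_20, another GH17 gene.

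GH17_13 was most like homeobox gene_3 (r = 0.90), of a family of transcription factors, PECTINESTERASE-like_5 (r = 0.87) and beta glucosidase 2_9 (r = 0.85). All 3 were highest on December 8, at 153 ± 6.24, 35.6 ± 5.91 and 190.5 ± 7.70 CPM. In October they were at 124 ± 5.51, 14.2 ± 1.21 and 131 ± 3.43 CPM.

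The identifiers of GH17_22 and its neighbours are consecutive, and their number order was taken as their order along the genome, since no coordinates were used here. GH17_24, GH17_23 and BG_3F lie in the 5 identifiers before GH17_22. GH17_23 and BG_3F had 0 reads in all 18 libraries and GH17_24 had at most 5 reads per library, while GH17_22 had up to 21879. The 2 identifiers on each side of GH17_22 had at most 2 reads over all libraries together. The next after these, PAV04g0221641, which has no name in the files and was singled out after its values were seen, was at 5.18 ± 0.694 CPM in October, 19.1 ± 6.04 CPM on January 3, 61.0 ± 18.3 CPM on February 12 and 10.1 ± 1.96 CPM in March (r = 0.94 with GH17_22 over 18 libraries). By default HTSeq leaves out reads that map to several places (the setting used is not given in the sources used here), so a low count in 1 of several near-identical copies, or a level of GH17_22 that holds part of a copy's reads, cannot be told apart here from the gene's own level.

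Near the other 3 genes, most neighbours peaked at other dates or had few reads. The 3 identifiers on each side of GH17_17 had only 4 to 82 reads over all 18 libraries together, while GH17_17 alone had 135 to 948 in each. GH17_13 was highest in December, but the 3 identifiers after it were highest on January 3. The identifier directly after GH17_29 had its highest mean in March, at 22.6 ± 1.94 CPM, when GH17_29 was at its lowest, whereas the next one, like GH17_29, was highest on January 3 (96.0 ± 5.33 CPM) and lowest in March (59.5 ± 5.44 CPM).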

How the data were processed

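The deposited files hold raw counts per gene for 18 libraries. They were made by the authors with Trimmomatic 0.36 for trimming, STAR for alignment to version 1 of the 'Regina' genome and HTSeq for counting (STAR and HTSeq versions are not given in the sources used here). Libraries were grouped by date. The study states replicates as buds of 3 different trees, without saying whether 1 number follows 1 tree over the dates. Same-numbered libraries deviated together in 6 of 45 pairs (r over 0.1), beside 14 of 90 pairs with different numbers, and were not paired.

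Counts were scaled by TMM and fitted in edgeR 4.0.16 (R 4.3.3; quasi-likelihood, 1 mean per date, 12 residual degrees of freedom) over the 26248 genes that averaged at least 3 counts and had zeros in at most 75% of libraries. Benjamini-Hochberg adjustment covered all genes. The standard error is the absolute log2 fold change over the root of F. DESeq2 1.42.0, other scalings and filters, a replicate block, no fold threshold and left-out libraries were the alternatives. The edgeR fit was tested on counts simulated for December against October, with 1 fixed spread for all genes. It recovered 97 of 100 genes changed 3-fold and 99 of 100 changed 6-fold, with 4 false calls. The other comparisons and steps were not simulated. Lists are the families of the study's candidate table (585 different identifiers, 63 matched by contig number). Named are the 4 genes, GH17 genes with an endodormancy peak, 4 GH17 genes the study names, the 3 candidates and 1 gene most like each of the 4 (the latter is printed for GH17_22 and GH17_29 only, to keep unnamed identifiers few), candidates within 3 identifiers, and up to 4 called members of each callose list. Members and lists were chosen with earlier results of these data known. No group exceeded 3 libraries, so no library was tested as an outlier within its date. No sequence of these genes was used.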

Additional observations from a re-analysis of the deposited data

How the results depend on the processing

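GH17_13, GH17_17 and GH17_22 kept their highest and lowest dates in all 23 alternatives, and GH17_29 kept its lowest date in all 23 and its highest in 16. The near-zero log2 fold change of GH17_17 from October to December was -0.051 on total counts, and ran from -0.039 to 0.077 with 1 library left out (-0.03 without October replicate 1, -0.01 and -0.039 without December replicates 1 and 3). Without a fold threshold, the other GH17 genes called, of 29 tested, were 2 higher and 11 lower for December against October, 14 lower for January 3, 7 higher for January 15, 12 higher and 4 lower for February 12 and 1 lower for March 12. Of all 26248 genes tested, 4977 were then called higher and 6330 lower for December and 4098 lower for January 3. For January 15 it was 3110 higher, for February 12 5281 higher and 5223 lower, and for March 12 7042 lower. Nothing is read from these counts about the other GH17 genes. With the 3 libraries of lowest mapping share left out, the other GH17 genes called were 0 higher and 3 lower for December, 0 higher for January 15 and 0 lower for February 12, where fewer libraries were fitted. Of the 26334 genes then tested, 911 were called higher and 2637 lower for December, 712 higher for January 15 and 947 lower for February 12. With 1 library left out, the counts of other GH17 genes called ran from 0 to 1 higher and 3 to 6 lower for December, 0 to 1 higher for January 15 and 0 to 1 lower for February 12. The BG genes called higher in endodormancy were 1 on total counts and 1 to 2 with 1 library left out, and the callose synthase genes 0 to 1. Without the replicate 2 libraries of January 15 and February 12, left out after seeing the data, the GH17_25 call of January 15 was lost (0 higher) and 1 BG gene stayed. The share of GH17 reads without GH17_22 was 33.5% on January 3, 21.8% on January 15, 17.8% on February 12 and 6.38% on March 12. The causes were not tested.

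With the replicate number as a block, the endodormancy log2 fold change was 2.41 for GH17_22, 0.88 for GH17_17, 0.47 for GH17_29 and 0.24 for GH17_13, and the other GH17 genes called were 0 higher and 15 lower. The correlation of same-numbered libraries ran from -0.39 to 0.53 (median 0.01), and that of differently numbered libraries from -0.50 to 0.38 (median -0.01). These values show no general shared deviation by number, but they cannot tell whether a number follows 1 tree. The block left the counts of other GH17 genes called unchanged in every comparison. It also left those of BG, callose synthase, PDCB and PDLP genes unchanged in the endodormancy comparison. Over all genes tested, the calls in that comparison went from 1207 to 1220 higher and from 3382 to 3393 lower. Levels near 1 CPM rest on about 10 to 20 reads per library and are imprecise.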
